A study of Mus musculus with 10 samples.

Results

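Nrp1 (neuropilin 1, ENSMUSG00000025810) is 1 of 12637 genes in a table of transcript levels from mouse CD8+ T cells of 2 genotypes. It was chosen by its measured RPKM over the 10 libraries, expressed in Ikaros-Zn4-/- cells and near silent in wild type (WT) cells. The genotype difference of Nrp1 is therefore a description and carries no test here. The tested genotype, Ikaros-Zn4-/-, removes zinc finger 4, 1 of the DNA-contacting fingers of the lymphocyte transcription factor Ikaros. All mice were C57Bl/6 females of 6 weeks, and splenic CD8+ cells with high CD62L and low or absent CD44 were sorted. The cells were taken directly (0 min) or kept on plate-bound antibodies to CD3 and CD28 for 30 or 120 min. For each genotype there were 2 unstimulated libraries, 2 after 30 min and 1 after 120 min. The mutation is present in all cells of the mice as far as the labels say, so changes during T cell development and in the sorted cells themselves cannot be told apart. Separate mice are not stated for the 2 libraries of a group, so a p-value speaks only of the spread among these libraries, which may be technical.

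Neuropilin 1 is a transmembrane co-receptor with a large extracellular part and a short cytoplasmic tail without enzymatic activity. It binds class 3 semaphorins together with plexins, which carry the signal, and it binds VEGF-A together with VEGF receptors. It also binds TGF-beta. In mouse lymphoid tissue it is best known on thymus-derived regulatory T cells and plasmacytoid dendritic cells, while naive conventional T cells have little of it.

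Nrp1 lies on the forward strand of chromosome 8, from 128358604 to 128503363 (GRCm38, GENCODE M21). Its promoter is shown because the mutated protein is a DNA-binding factor whose usual core motif is GGGAA. The window of 300 bases is the RefSeq window on GRCm38.p6, chr8:128358823-128359122, forward strand, with 250 bases before the start site at 128359073 and 50 from it on. That start site is the one of RefSeq. The GENCODE M21 gene begins before the window, at 128358604, so the whole window lies inside that gene model. Capitals mark GGGAA on either strand, where TTCCC is the reverse complement.

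Nrp1: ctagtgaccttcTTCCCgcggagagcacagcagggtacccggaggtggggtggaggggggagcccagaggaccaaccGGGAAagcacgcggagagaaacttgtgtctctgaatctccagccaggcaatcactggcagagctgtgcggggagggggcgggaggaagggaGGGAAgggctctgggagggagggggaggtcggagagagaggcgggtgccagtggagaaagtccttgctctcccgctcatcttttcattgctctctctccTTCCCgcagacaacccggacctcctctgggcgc

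The window holds 4 matches to GGGAA, 2 on the forward and 2 on the reverse strand. They begin 238, 173 and 82 bases before the start site and 17 bases after it. Of 32851 RefSeq windows of the same length, 62.7% hold at least 1 match and 2.31% hold 4 or more. The longer form TGGGAA has 0 matches in the Nrp1 window and at least 1 in 25.6% of all windows. The motif GGGAA contains GGAA, the core of the ETS family of transcription factors, which occurs in 96.0% of windows. A match describes the letters only, since binding was not measured.

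Depth was 4.50 to 13.3 M reads per library, recovered from the steps of the RPKM values (reads per kilobase of gene model, scaled to library size). Each gene of the table has 1.00 RPKM or more as the mean of some group, so genes low in all groups were not analysed here. A gene low in every WT library is thus in the table only if a mutant group was high, which favours calls of higher in mutant cells for such genes. The sorted identity was checked by marker genes. The 7 CD8 T cell markers summed to 1038 to 3848 RPKM in Ikaros-Zn4-/- and 806 to 3396 RPKM in WT libraries, and 2 of them, Thy1 and Lck, were higher in mutant cells over all times, at log2 differences of RPKM + 1 of 0.43 each (limma, adjusted p = 0.0318 and 0.0252, calls lost without any 1 of several libraries, with adjusted p up to 0.0983 for Thy1 and 0.0729 for Lck when the library left out was WT 120 min replicate 2 and WT 30 min replicate 1). Over all genes 6.19% were called higher and 3.24% lower in that comparison. Libraries of a group were not alike for some TCR-induced genes. Nr4a1, an orphan nuclear receptor induced by TCR signals, had 38.9 and 18.4 RPKM in Ikaros-Zn4-/- cells at 0 min, against 221 and 28.0 RPKM in WT cells at 0 min. Ikzf1, the gene that encodes Ikaros, had 206 to 263 RPKM in Ikaros-Zn4-/- and 134 to 171 RPKM in WT libraries, and a value per gene does not check the deletion.

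Nrp1 was an expressed gene in every Ikaros-Zn4-/- library and close to the detection limit in every WT library. The unstimulated Ikaros-Zn4-/- libraries held 28.2 and 28.0 RPKM of Nrp1, those after 30 min 24.6 and 27.1 RPKM, and the one after 120 min 17.7 RPKM. The unstimulated WT libraries held 0.363 and 0.267 RPKM, those after 30 min 0.394 and 0.320 RPKM, and the one after 120 min 0.339 RPKM. The mutant libraries were thus all far higher than the WT libraries, and no WT library reached 1 RPKM. In bulk RNA a higher share of cells with Nrp1 and more Nrp1 RNA per cell cannot be told apart.

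The values rest on whole reads. With a gene model of 5907 bases, the RPKM values of Nrp1 correspond in all 10 libraries to whole numbers of reads within 0.1 read. These were 2218, 745, 1488, 922 and 964 reads in the Ikaros-Zn4-/- libraries, in the order above, and 23, 14, 27, 11 and 21 reads in the WT libraries. The shallowest mutant library, the second at 0 min, still held 745 reads. WT cells were thus not at 0. The 95% exact Poisson interval was widest in relative terms for the second WT library at 30 min, 5.49 to 19.7 reads or 0.160 to 0.572 RPKM. For the mutant library at 120 min it was 904 to 1027 reads, or 16.6 to 18.9 RPKM. Such intervals cover counting error only.

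**Figure D1:**
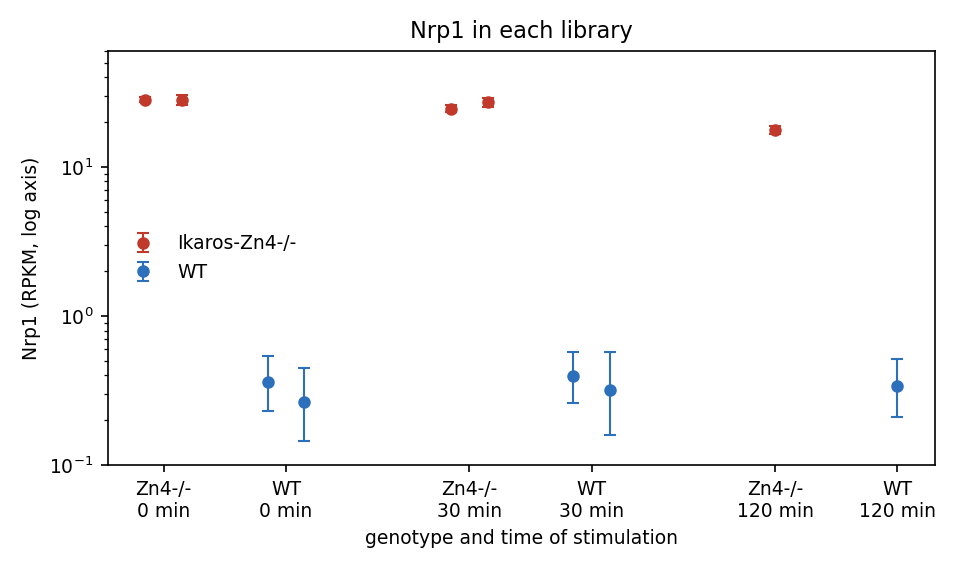
Nrp1 in each library (RPKM, log axis) by genotype and time of stimulation, with 95% exact Poisson intervals of the recovered reads as bars. Ikaros-Zn4-/- libraries sit between 17.7 and 28.2 RPKM, and WT libraries between 0.267 and 0.394 RPKM.

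Group means give the same order at each time. At 0 min the mean was 28.1 ± 0.111 RPKM in Ikaros-Zn4-/- cells and 0.315 ± 0.0678 RPKM in WT cells (SD, n = 2 each), a ratio of 89.3. At 30 min it was 25.8 ± 1.74 RPKM in Ikaros-Zn4-/- cells and 0.357 ± 0.0525 RPKM in WT cells (SD, n = 2 each), a ratio of 72.3. At 120 min the ratio of the single libraries was 52.4. Over all times the log2 difference of RPKM + 1 was 4.27 (SE 0.11), while the median over all genes was 0.01. The pseudocount of 1 RPKM sets much of its size, because WT cells were below it. With a pseudocount of 0.1 RPKM the difference was 5.84, and on recovered reads by limma-voom it was 6.14. Without the first 0 min library of each genotype, left out because Nr4a1 differed within the 0 min groups, it was 4.23.

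Among the 12203 genes tested, Nrp1 had the log2 difference of rank 6 from the top, and rank 14 by the ratio of mean RPKM among genes with a WT mean above 0. Its mean in Ikaros-Zn4-/- libraries was above that of 82.8% of the genes, and its mean in WT libraries was above that of 1.35%. Both scales are RPKM and so per length. Such a complete separation, mutant above WT in all 10 libraries, was found for 329 genes, or 2.7% of those tested. As Nrp1 was chosen for this separation, its place among them is no finding.

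**Figure D2:**
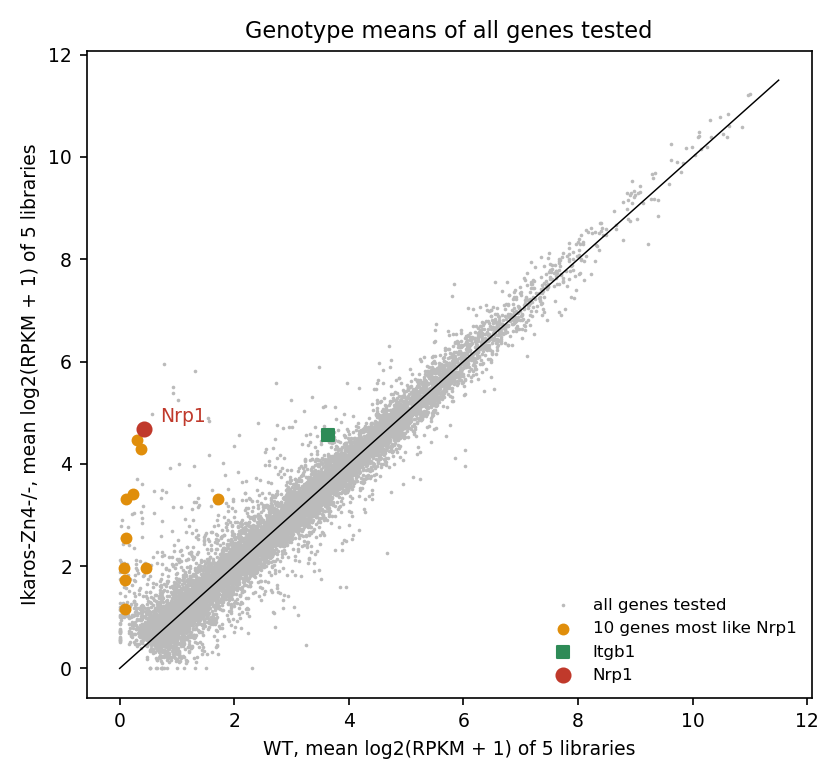
Mean log2(RPKM + 1) of the 5 Ikaros-Zn4-/- libraries (vertical axis) against that of the 5 WT libraries (horizontal axis) for the 12203 genes tested, with the line of equal means. Nrp1, Itgb1 and the 10 genes most like Nrp1 are marked, and Nrp1 lies at the left edge of the cloud and high above the line.

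The gene was chosen for its level by genotype, not for a change with time, so its time course in mutant cells was tested. The choice required low values in every WT library, so the WT tests could hardly show a change. The comparison of responses between the genotypes draws on the same WT values. The test was limma on log2(RPKM + 1) of all 12203 genes with Benjamini-Hochberg adjustment. For Ikaros-Zn4-/- cells after 30 min the log2 change of Nrp1 was -0.12 (SE 0.13, adjusted p = 0.641), which did not pass the threshold. The median over all genes in that contrast was -0.12 as well, and 2.74% of genes were called in either direction.

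At 120 min Nrp1 was lower in Ikaros-Zn4-/- cells, at 17.7 RPKM in 1 library against 28.2 and 28.0 RPKM at 0 min. The log2 change was -0.63 (SE 0.16, adjusted p = 0.0171). By then 47.3% of all genes were called in that contrast and 32.6% were called lower, and the median over all genes was -0.35. Relative to that median Nrp1 fell by 0.29. After scaling by the median ratio of genes the change was -0.22 and was no longer called (adjusted p = 0.292), so the call does not hold relative to the bulk of genes. It was also lost without Zn4 0 min replicate 1 (adjusted p = 0.0551), without Zn4 0 min replicate 2 (adjusted p = 0.0571) and with a pseudocount of 0.1 RPKM (adjusted p = 0.0635). Between 30 and 120 min the change was -0.52 (SE 0.16, adjusted p = 0.0443), and 36.8% of genes were called in that contrast. That call was lost in 13 of 20 alternatives, among them leaving out any 1 of the libraries of 0 or 30 min of either genotype (adjusted p from 0.0604 to 0.135).

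In WT cells Nrp1 was low at all times, which the choice of the gene had set. Its change from 0 min was 0.05 at 30 min (SE 0.13, adjusted p = 0.852) and 0.03 at 120 min (SE 0.16, adjusted p = 0.911). Neither passed the threshold, while 6.03% and 43.6% of all genes were called in these contrasts. On the log2(RPKM + 1) scale a gene near 0.3 RPKM can hardly move, and 11 to 27 reads per library leave wide counting error. The difference between the genotypes in the 120 min response was -0.66 (SE 0.23, adjusted p = 0.892). That is no call, in a contrast where limma and limma-voom each called 0 of 12203 genes and 661 had an unadjusted p below 0.05.

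Ordered by level, the Ikaros-Zn4-/- group without stimulation came first, then those of 30 and 120 min, then the WT groups. The mutant groups at 0 and 30 min did not differ beyond their spread in the test, although the ranges of their libraries did not overlap. The WT groups overlapped in their libraries, and their order means nothing at these read numbers.

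Itgb1, which encodes the beta 1 integrin chain, is the nearest gene with values on the chromosome and begins 182.3 kb after the end of Nrp1, on the same strand (chromosome 8, 128685654 to 128733200). Ikaros-Zn4-/- libraries held 23.1 and 25.6 RPKM of Itgb1 before stimulation, 16.4 and 23.9 RPKM after 30 min, and 25.9 RPKM after 120 min. WT libraries held 9.33 and 13.6 RPKM before stimulation, 8.50 and 11.6 RPKM after 30 min, and 15.3 RPKM after 120 min. The genotypes did not overlap. The log2 difference over all times was 0.93 (SE 0.14, adjusted p = 0.00347, limma), in a contrast where 9.42% of genes were called. Within 1 Mb, 2 other genes had values, the predicted gene Gm21399 and 2610044O15Rik8, and neither was called for genotype (adjusted p = 0.278 and 0.957). The Itgb1 means were 23.0 RPKM in mutant and 11.7 RPKM in WT cells, a ratio of 1.97, against 74.6 for Nrp1.

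The genes whose profile was most like that of Nrp1 were found by Pearson's r of log2(RPKM + 1) over the 10 libraries, as a description without a test. Genotype divides these libraries into separate clusters, so r mostly measures that split. The 10 closest genes had r from 0.991 to 0.999. In order of r they were Tln2, Tmem204, Mmp14, Lilrb4, Ston1, Dst, Ctnnd2, Cyfip1, Ass1 and Ccr8. They include Tln2, a talin that links integrins to actin, and Mmp14, a membrane-bound matrix metalloproteinase. Tmem204 is a membrane protein, Ctnnd2 a delta catenin, Dst a cytoskeletal linker of the plakin family and Ccr8 a chemokine receptor.

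Tln2 stood in Ikaros-Zn4-/- libraries at 5.27 and 5.52 RPKM before stimulation, 4.94 and 4.55 RPKM after 30 min, and 3.97 RPKM after 120 min. Its WT libraries held 0.122 and 0.083 RPKM before stimulation, 0.057 and 0.070 RPKM after 30 min, and 0.070 RPKM after 120 min. The mutant libraries of Tln2 were all above its WT libraries, with the lowest mutant value at 120 min, as for Nrp1. Mmp14 averaged 21.7 RPKM in mutant and 0.253 RPKM in WT libraries, and Tmem204 averaged 18.7 RPKM in mutant and 0.304 RPKM in WT libraries. Ass1, which encodes argininosuccinate synthase, was not silent in WT cells and averaged 9.01 RPKM in mutant and 2.31 RPKM in WT libraries. The mutant to WT ratio of means ran from 3.89 for Ass1 to 108 for Ctnnd2, and was 74.6 for Nrp1. Lilrb4 belongs to a family of near-identical copies, so its values are uncertain.

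In mutant cells the level in the 1 library at 120 min was 0.631 of the mean at 0 min for Nrp1, 0.595 for Mmp14, 0.741 for Tmem204 and 1.07 for Ctnnd2. Differences between these ratios were not tested, and the median log2 change of all genes in that contrast was -0.35. RefSeq windows were found for 6 of the 10 genes, and 5 of the 6 hold GGGAA at least 1 time, a share that can be read against 62.7% of all windows.

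**Figure D3:**
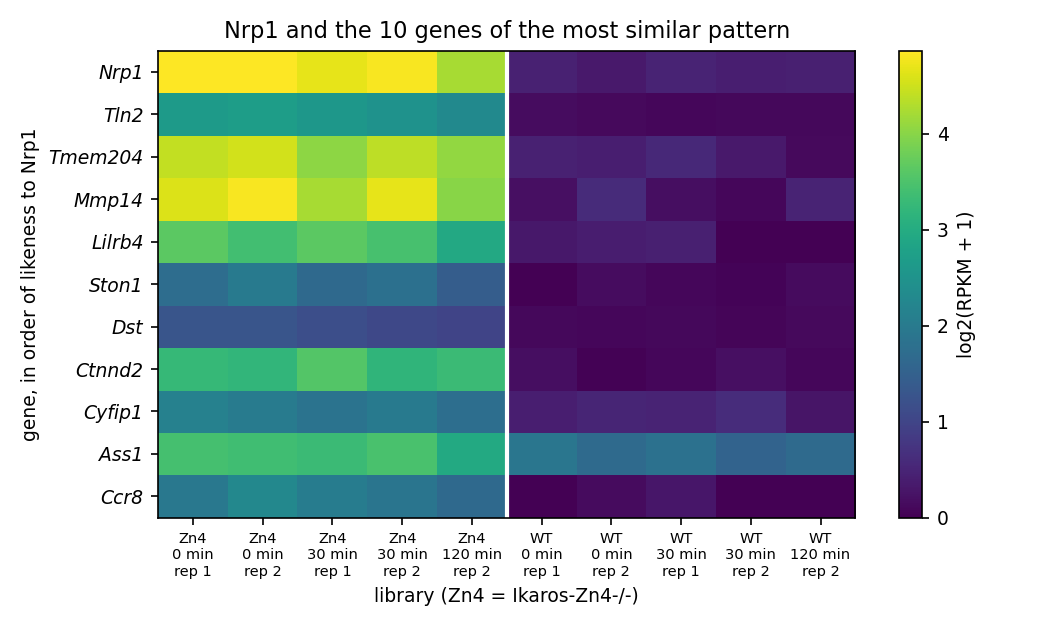
Heat map of log2(RPKM + 1) for Nrp1 and the 10 genes of the most similar profile (rows) in the 10 libraries (columns), Ikaros-Zn4-/- left of the white line and WT right of it. Every row is brighter on the left, and Ass1 keeps some signal on the right.

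With every WT library below 1 RPKM and every mutant library above 1 RPKM, Nrp1 was 1 of 63 genes. With every mutant library above 10 RPKM it was 1 of 5, beside Tmem176b, Cd163l1, Mmp14 and Tmem204. Tmem176b, a membrane protein, averaged 68.0 RPKM in mutant and 0.734 RPKM in WT libraries, and at 120 min it was at 0.242 of its 0 min mean in mutant cells. Cd163l1 was at 0.302 of its 0 min mean, against 0.631 for Nrp1, again from 1 library at 120 min and without a test.

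The genes that Nrp1 works with were compared between the genotypes over all times in the same limma fit. Of 41 neuropilin, plexin, semaphorin and signalling genes, 19 had values and 18 could be tested. In Ikaros-Zn4-/- cells 5 of 18 were higher and 1 was lower, or 27.8% and 5.56%, where 6.19% and 3.24% of all genes were called higher and lower. The median log2 difference of the list was 0.08, against 0.01 over all genes. No value for Nrp2 or for any class 3 semaphorin was analysed here.

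Of the plexins 3 could be tested, and none of them was called. Plxna1, a partner of neuropilins in semaphorin binding, had 1.69 and 2.12 RPKM in mutant libraries before stimulation, 1.85 and 1.59 RPKM after 30 min, and 1.48 RPKM after 120 min. Its WT libraries held 1.15 and 1.11 RPKM before stimulation, 1.25 and 0.781 RPKM after 30 min, and 1.44 RPKM after 120 min. The Plxna1 difference was 0.36 (SE 0.13, adjusted p = 0.122), although every mutant library lay above every WT library. The levels of Plxna1 were far below those of Nrp1 in mutant cells on the RPKM scale.

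Among the semaphorins 3 were higher in mutant cells. Sema4f had 24.4 and 24.0 RPKM at 0 min in mutant cells and 9.61 and 9.94 RPKM in WT cells, and over all times the log2 difference was 1.23 (SE 0.12, adjusted p = 0.000232). Sema4a, a class 4 semaphorin with roles in T cell priming, had 77.1 and 78.5 RPKM at 0 min in mutant cells and 67.7 and 55.2 RPKM in WT cells, a difference of 0.54 (SE 0.11, adjusted p = 0.0135). Sema7a, a membrane-anchored semaphorin that acts through plexin C1 and beta 1 integrins, differed by 1.47 (SE 0.28, adjusted p = 0.0103), with 13.9 RPKM at 120 min in mutant and 1.04 RPKM in WT cells. Its mutant libraries lay above its WT libraries, while those of Sema4f and Sema4a overlapped over the time course.

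Of the intracellular partners, the GTPases Rras and Rnd1 were higher and Dpysl2 was lower. Rras, a target of plexin GTPase-activating domains, had 32.0 and 37.0 RPKM in mutant libraries before stimulation, 22.3 and 26.2 RPKM after 30 min, and 13.9 RPKM after 120 min. Its WT libraries held 7.43 and 9.28 RPKM before stimulation, 4.61 and 4.67 RPKM after 30 min, and 5.87 RPKM after 120 min. The groups did not overlap, and the difference was 1.86 (SE 0.15, adjusted p = 8.31e-05).

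Rnd1, which binds plexins, had 0.859 and 1.35 RPKM before stimulation and 14.0 RPKM after 120 min in mutant cells, against 0.220 and 0.038 RPKM before and 1.32 RPKM after 120 min in WT cells. Its difference over all times was 1.77 (SE 0.27, adjusted p = 0.00297). Dpysl2, a mediator of semaphorin signals to microtubules, differed by -0.51 (SE 0.11, adjusted p = 0.0184, and 0.0563 without WT 0 min replicate 2). Gipc1, the adaptor of the neuropilin 1 tail, was not called for genotype at -0.23 (SE 0.19, adjusted p = 0.519).

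In the VEGF list 2 of 7 genes had values, and neither was called for genotype. Vegfa, the ligand of neuropilin 1 and VEGF receptors, differed by 0.36 (SE 0.16, adjusted p = 0.215) and Vegfb by -0.08 (adjusted p = 0.793). In the TGF-beta list 2 of 10 tested genes were higher and 0 were lower, beside 6.19% and 3.24% of all genes. Tgfbr3, a co-receptor also called betaglycan, averaged 14.7 RPKM in mutant and 7.99 RPKM in WT libraries, a difference of 0.79 (SE 0.10, adjusted p = 0.00135). Skil, a repressor of SMAD proteins, differed by 0.66 (SE 0.14, adjusted p = 0.0176). The Skil call was lost when WT 0 min replicate 1, Zn4 0 min replicate 2 or either 120 min library was left out, with adjusted p from 0.051 to 0.0568.

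**Figure D4:**
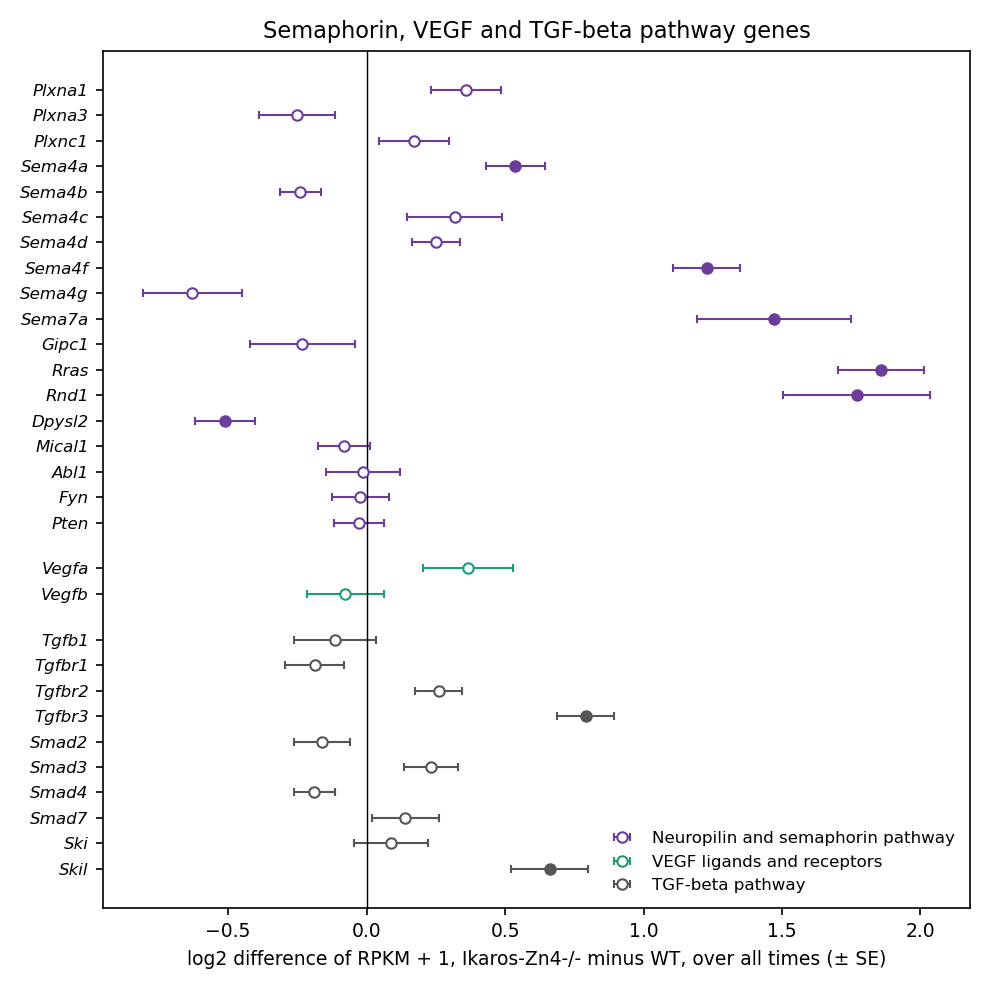
Log2 difference of RPKM + 1 over all times, Ikaros-Zn4-/- minus WT, with its SE, for the tested genes of the semaphorin (purple), VEGF (green) and TGF-beta (grey) lists. Filled points have an adjusted p below 0.05, and Rras at 1.86 and Rnd1 at 1.77 lie farthest to the right.

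The changes of the same partner genes on stimulation were taken as the mean over both genotypes. Averaged in this way, Nrp1 changed by -0.04 at 30 min and -0.30 at 120 min on the deposited scale. The WT part of that average was held low by the choice of the gene, so it cannot judge the Nrp1 response. Changes below are relative to the median of all genes, which was -0.13 at 30 min and -0.32 at 120 min, and the adjusted p tests the deposited scale. At 30 min 3 of 18 semaphorin pathway genes rose and 2 fell, where 6.51% and 12.5% of all genes did. Rnd1 rose by 2.12 (adjusted p = 0.000775) and Sema4c by 0.93 (adjusted p = 0.0257). The Sema4c call was lost without any 1 WT library of 0 or 30 min, or either mutant library of 0 min (adjusted p from 0.0592 to 0.0882). The call of Dpysl2, which also rose, was lost without any 1 of 5 libraries (adjusted p from 0.0605 to 0.0675). Of the 2 that fell, Sema4f lost its call without any 1 of 7 libraries (adjusted p from 0.0641 to 0.112) and after median ratio scaling (0.130), and Rras without WT 0 min replicate 2 (0.0526) or WT 30 min replicate 1 (0.0543). At 120 min 4 rose and 9 fell, where 19.3% and 40.4% of all genes did.

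At 120 min Sema4f was at -2.42 (adjusted p = 3.23e-05), Sema4a at -2.26 (adjusted p = 3.7e-05) and Gipc1 at -2.01 (adjusted p = 7.89e-05). Sema7a rose by 1.90 over both genotypes (adjusted p = 0.00128). Within mutant cells its change was 2.81 (adjusted p = 0.00157), and within WT cells it was 1.00 and was not called (adjusted p = 0.139). The difference between these Sema7a changes was not called either (1.76 on the deposited scale, SE 0.49, adjusted p = 0.876). Vegfa rose at 30 min, by 1.92 (adjusted p = 0.00103), and stood at 2.57 at 120 min (adjusted p = 6.67e-05). Mutant cells held 0.384 and 0.517 RPKM of Vegfa before stimulation and 8.05 RPKM after 120 min, and WT cells held 0.195 and 0.183 RPKM before and 3.31 RPKM after it. In the TGF-beta list 9 of 10 tested genes rose at 120 min and 0 fell, where 19.3% and 40.4% of all genes did. Of the 9, Tgfbr3 lost its call in 7 of 19 alternatives. Among them were the inhibitory SMAD gene Smad7 at 2.14 (adjusted p = 9.3e-05), the ligand gene Tgfb1 at 1.65 (adjusted p = 0.00112) and the receptor genes Tgfbr1 at 1.86 (adjusted p = 8.87e-05) and Tgfbr2 at 1.04 (adjusted p = 0.00165).

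Markers of cells known to carry neuropilin 1 were compared between the genotypes, and their part in the Nrp1 difference was not tested. Of 16 regulatory T cell markers 11 had values and 10 were tested, of which 4 were higher in mutant cells and 0 lower, beside 6.19% and 3.24% of all genes. The 4 were Ikzf2, Entpd1, Tnfrsf9 and Capg, and the Capg call (0.61, adjusted p = 0.0270) was lost without any 1 of 6 libraries (adjusted p from 0.0542 to 0.0714). All 11 markers with values, called or not, summed to 81.4 to 161 RPKM in mutant and 58.0 to 134 RPKM in WT libraries. Ikzf2, which encodes the Ikaros family member Helios, had 8.14 and 6.19 RPKM at 0 min in mutant and 2.00 and 2.06 RPKM in WT cells, and differed by 1.19 (SE 0.11, adjusted p = 0.000161). Entpd1, which encodes the ectonucleotidase CD39, had 0.740 to 2.71 RPKM in mutant libraries and was at 0 in 1 WT library, with a difference of 1.32 (SE 0.18, adjusted p = 0.00159). Il2ra, the marker with values that was not tested, was at 0.10 to 0.27 RPKM at 0 and 30 min in mutant cells. It had a mean of 1.00 RPKM or more in a group other than these, since each gene of the table reached that in some group. No value of Foxp3 or Cd4 was analysed here.

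Of 7 plasmacytoid dendritic cell markers 3 had values, summing to 56.2 to 177 RPKM in mutant and 30.9 to 179 RPKM in WT libraries. Ccr9 and Pacsin1 of that list were lower in mutant cells, at -0.51 (adjusted p = 0.0291) and -1.16 (adjusted p = 0.00175). The third, Bst2, which encodes tetherin, averaged 97.1 RPKM in mutant and 64.9 RPKM in WT libraries and was not called over all times (0.67, SE 0.20, adjusted p = 0.0717). At 30 min Bst2 was higher in mutant cells by 0.96 (adjusted p = 0.0270), where 2.01% of all genes were called higher. The Ccr9 call was lost on leaving out any 1 library other than WT 0 min replicate 1, Zn4 0 min replicate 1 or Zn4 30 min replicate 2 (adjusted p from 0.0501 to 0.0831). Of 12 dendritic cell and macrophage markers 4 had values, summing to 31.6 to 94.5 RPKM in mutant and 28.8 to 52.6 RPKM in WT libraries. Itgam was the 1 called gene, with 0.869 to 1.61 RPKM in mutant and 0.164 to 0.307 RPKM in WT libraries (difference 0.90, adjusted p = 0.00272). No WT library of Itgam reached 1.00 RPKM, so it is in the table only through mutant groups, and its call carries no weight as a marker. Of 8 endothelial markers Pecam1 and Esam had values, Esam being at 0 in 2 mutant libraries, and Pecam1, which could be tested, was not called. The 2 endothelial genes summed to 25.4 to 35.4 RPKM in mutant and 22.6 to 28.4 RPKM in WT libraries.

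Other lymphocyte lists held calls in both directions, beside 6.19% of all genes called higher and 3.24% called lower. The natural killer cell list had 2 of 5 markers with values, Eomes and Gzma, and both were higher, Gzma being at 0 in 2 WT libraries, with sums of 12.7 to 34.2 RPKM in mutant and 1.90 to 9.60 RPKM in WT libraries. Eomes, a T-box factor that memory CD8+ T cells also express, differed by 1.64 (SE 0.12, adjusted p = 3.72e-05). Among inhibitory receptor and tolerance genes 2 of 11 were higher, Pdcd1, which encodes PD-1, at 1.09 (adjusted p = 0.0122) and Lag3 at 1.35 (adjusted p = 0.00667). Lag3 was at 0 in at least 1 library. The Pdcd1 call was lost without the WT and Zn4 0 min replicates 1, where the difference was 1.04. The median of these 11 genes was -0.23, on the other side of the median of all genes at 0.01. In the B cell list Ighm at -0.56 (adjusted p = 0.0161, and 0.058 without either 120 min library) and Cd79b at -0.83 (adjusted p = 0.00239) were lower in mutant cells, and the 3 genes summed to 46.7 to 314 RPKM in mutant and 76.7 to 411 RPKM in WT libraries.

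Of 6 thymocyte markers 2 had values, and Dntt, which encodes terminal deoxynucleotidyl transferase, was higher at 1.19 (adjusted p = 0.000688). These 2 genes summed to 9.48 to 13.7 RPKM in mutant and 4.22 to 6.99 RPKM in WT libraries. None of the 7 naive T cell markers was called for genotype by limma, at the call threshold, and they summed to 1373 to 2255 RPKM in mutant and 1651 to 2392 RPKM in WT libraries. In the Notch list Rbpj was higher at 0.48 (adjusted p = 0.0161) and Notch2 lower at -0.46 (adjusted p = 0.00376), 1 each out of 7 tested genes, beside 6.19% and 3.24% of all genes.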

How the data were processed

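RNA of sorted splenic CD8+ T cells was made into single-end TruSeq v2 libraries, per the labels' protocols. The authors deposited RPKM values, 1 column per library. Per the submitters' processing notes, TopHat2 2.0.12, TopHat and HTSeq 0.6.1 were used, and builds mm10 and GRCm38 are named. What each tool did, which annotation was counted and how genes were filtered is not stated in those notes. The kit does not mark strand, so reads of overlapping genes on opposite strands cannot be told apart.

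Reads were recovered from the RPKM steps with GENCODE M21 exon lengths (12567 of 12637 identifiers matched; of values below 200 reads, 65.8% to 71.1% came out whole within 0.01, where chance gives 2%). For Nrp1, a length of 5907 bases gave whole reads, against 9785 in GENCODE M21. Replicate libraries shared no pattern of identical values, with r of 0.959 to 0.971 across genes.

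limma 3.58.1 (R 4.3.3) was fitted to log2(RPKM + 1) for the 12203 genes averaging 0.5 RPKM or more. The model had a mean for each group (4 residual degrees of freedom), or genotype and time (6) for the genotype difference over all times. Tests were two-sided, with Benjamini-Hochberg adjustment and a threshold of 0.05. Each lone 120 min library was taken to vary as libraries of other groups do. The code was tested on simulated data. Python 3.11.15 was used for reads, motifs and figures.

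Nrp1, the gene lists and the tests were chosen with earlier results of these data known. Named genes are Nrp1, list members, the 10 genes closest by r and genes within 1 Mb. Alternatives were other pseudocounts, filters and scalings, no trend, a replicate block, limma-voom and leaving out each library.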

Additional observations from a re-analysis of the deposited data

How the results depend on the processing

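The genotype difference of Nrp1 kept its direction under every alternative run. It moved beyond its spread with a pseudocount of 0.1 RPKM (5.84), with 0.5 RPKM (4.92) and by limma-voom (6.14), and was 4.22 to 4.39 without any 1 library. The fall at 120 min in Ikaros-Zn4-/- cells was not called with a pseudocount of 0.1 RPKM (-0.66), after median ratio scaling (-0.22) or, chosen after seeing the data, without the WT and Zn4 0 min replicates 1 (-0.63, adjusted p = 0.0893). It was -0.64 to -0.63 without any 1 library, with adjusted p from 0.0152 to 0.0571, and over all alternatives adjusted p ran from 0.00396 to 0.292. The uncalled 30 min change in mutant cells was 0.016 after median ratio scaling, the cause of which was not tested, and -0.18 to -0.05 without 1 library. In WT cells the changes turned to -0.0064 at 30 min and -0.026 at 120 min without WT 0 min replicate 2. Without any 1 library they ranged from -0.0064 to 0.099 and from -0.026 to 0.080. The largest values over all alternatives were 0.26 at 30 min by limma-voom and 0.39 at 120 min after quantile normalization, and neither was called. Genes called for genotype numbered 714 (without WT 30 min replicate 1) to 1031 without 1 library, and 615 without both 0 min replicates 1, against 1150. Members of all lists called at 30 min numbered 24, but 12 to 25 without 1 library (13 when WT 0 min replicate 2 was left out, 12 for WT 30 min replicate 1 or Zn4 0 min replicate 2, 15 for Zn4 30 min replicate 1), 8 without both 0 min replicates 1 and 37 by limma-voom. After median ratio scaling the 120 min changes of Sema4d and Pecam1 were 0.063 and 0.035. Of the other values of single genes 2213 kept their side of the threshold and 174 lost it.

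Samples of the same number share only that number. Their deviations correlated across genes at 0.037 to 0.23, and with the replicate block the Nrp1 change at 120 min in mutant cells was -0.63 (adjusted p = 0.0184) and 1567 genes were called for genotype. The 120 min mutant library is numbered 1 in its title and 2 in its description, and the description was followed. With number 1 instead, chosen after seeing the data, the replicate block gave -0.64 (adjusted p = 0.0179) and 1759 genes. Depth limits the WT values of Nrp1, which rest on 11 to 27 reads.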
